A study of Mus musculus with 8 samples.

Results

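The chromatin of 10 genes of the gp130 cytokine pathway was examined in retinal ganglion cells (RGCs), the neurons whose axons form the optic nerve. The genes were the ligand Lif, the receptors Il6st, Lifr, Cntfr and Osmr, the kinases Jak1 and Jak2, the transcription factor Stat3 and the inhibitors Socs1 and Socs3. A region belonged to the set when it overlapped one of these genes or the 10 kb on either side (mouse build GRCm38). This rule took 119 of 189914 regions, where a region is a stretch covered by the peaks of any of the 8 samples, joined when they shared at least 1 bp. The rule used position only, not peak height.

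Open chromatin was measured with ATAC-seq, which relies on a transposase that inserts sequencing adapters into accessible DNA. Adult C57BL/6J mice received AAV2 in the vitreous body, with GFP in 3 control samples, Ezh2 in 3 samples and Ezh2-Y726D in 2 samples, and in all groups the optic nerve was crushed 2 weeks later. Ezh2 is the histone methyltransferase of Polycomb repressive complex PRC2, and Ezh2-Y726D is a form without catalytic activity. At 3 days after the crush, cells positive for CD90.2, a form of Thy1 that RGCs carry and that T cells carry too, were sorted from dissociated retinas, and 50000 cells went into each library. The sort did not select for cells that the virus had reached, and the labels do not say which samples came from separate animals, so the p-values measure the spread between these samples.

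Cytokines of the interleukin-6 family bind receptor pairs that contain gp130, the product of Il6st. The receptors activate Jak kinases, the kinases phosphorylate Stat3, and Stat3 moves to the nucleus and switches on target genes. Socs3 is one of these targets and blocks the receptor and its kinases, which closes a negative feedback loop. In RGCs this pathway is known for its effect on survival and on axon regrowth after optic nerve injury, and removal of Socs3 is a classic way to raise regrowth.

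The peak lists held from 112939 to 135895 peaks. Read numbers are not part of them, so the depth of sequencing is not stated. The steps between low folds imply a background read coverage, a relative measure of depth. It was 3.25, 2.69 and 3.74 with GFP, 3.09, 3.33 and 3.59 with Ezh2, and 2.39 and 3.12 with Ezh2-Y726D. A region without a peak is one that did not reach the peak caller's threshold in that list, not one shown to be closed. RGC marker genes with a peak within 1 kb of a start site numbered 14 or 15 of 15 in every list. Lists of other cells differed between the groups. T cell marker genes with such a peak numbered 12, 13 and 14 of 15 with GFP, 15, 14 and 14 with Ezh2, and 6 and 5 with Ezh2-Y726D. Those of microglia and macrophages numbered 11, 8 and 13 of 15 with GFP, 13, 12 and 13 with Ezh2, and 4 and 4 with Ezh2-Y726D. The summed fold over the T cell genes ranged from 68.5 to 81.2 with GFP, from 79.2 to 90.3 with Ezh2 and from 27.3 to 35.0 with Ezh2-Y726D. Cd3e, Cd3g, Cd8a, Lat, Zap70 and Cd28 had no peak at a start in either Ezh2-Y726D list, and neither did Cx3cr1, C1qb, Tyrobp and Fcer1g, whereas all of them had one in the other 6 lists. The same sum over the microglia and macrophage genes ranged from 52.0 to 72.8 with GFP, from 72.2 to 78.0 with Ezh2 and from 39.3 to 43.7 with Ezh2-Y726D. Müller glia and astrocyte genes (11 of 12) and amacrine cell genes (9 of 10) were the same in number in all 8 lists, and endothelial (9 or 10 of 14) and rod genes (10 to 12 of 12) differed little. In sorted bulk cells, fewer cells of a type and less opening per cell cannot be told apart.

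**Figure D1:**
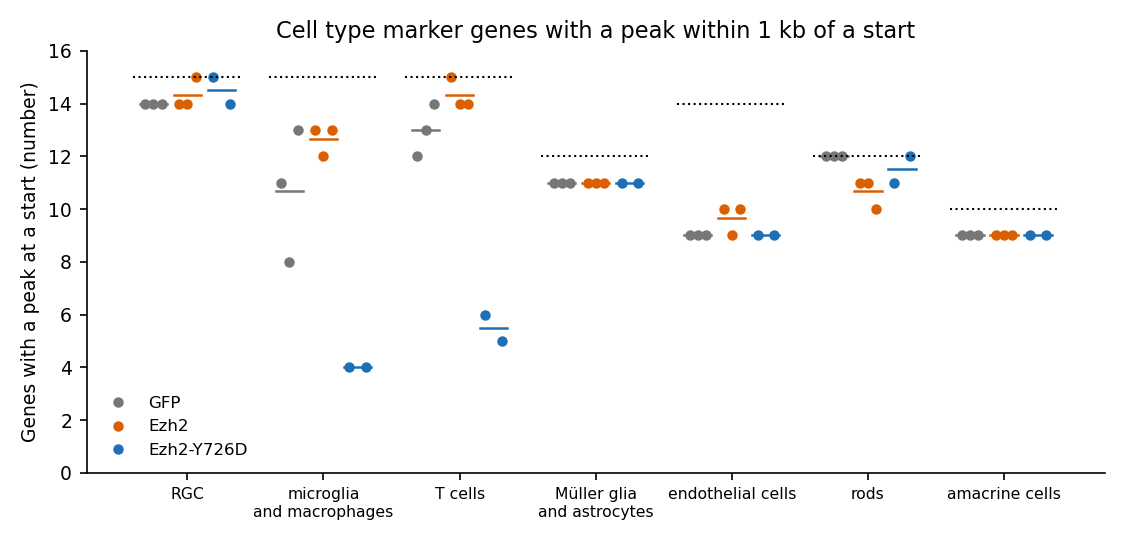
Number of marker genes (vertical axis) with a peak within 1 kb of a start site, for 7 cell type lists (horizontal axis). Each point is 1 sample, short lines are group means and dotted lines give the size of the list. The T cell and the microglia and macrophage lists are the ones with fewer genes in the 2 Ezh2-Y726D samples, at 4 to 6 genes, than in every other sample.

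The starts of the signalling genes were open in all groups. Of the 10 genes, 9 had a region over an annotated start or the gene's outermost 5′ end, called a start region here. All 9 of these regions had a peak in all 8 lists. Cntfr was counted by its outermost end alone, as none of its 6 listed starts had a region over it. Of the 119 regions, 47 (39.5%) had a peak in every list, against 36.6% of all regions, and 19 (16%) had one in a single list, against 17.2% of all regions. Inside the genes but not over a start, 27 of 76 regions were in every list, and outside the genes 11 of 34. Median width was 628 bp for the set and 559 bp over all regions. None of the 119 regions lay within 1 kb of the start of another protein-coding gene, although 3 regions downstream of Jak1 lay in Raver2 and 2 downstream of Stat3 lay in Stat5a.

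The sequence just before the start is shown for the ligand, the common receptor and an inhibitor, because the first has no peak there and the other two have one in every list. Sequences are from RefSeq (GRCm38.p6), which held promoter windows for all 10 genes. Each run gives the 250 bases before the listed start, read in the direction of transcription. They lie at chr11:4257318-4257567 (plus strand) for Lif, chr13:112463820-112464069 (plus strand) for Il6st and chr16:10785537-10785786 (minus strand) for Socs1. Capitals mark matches to the core of the interferon response element, searched on both strands as GAAA, any 2 bases and GAAA.
Lif: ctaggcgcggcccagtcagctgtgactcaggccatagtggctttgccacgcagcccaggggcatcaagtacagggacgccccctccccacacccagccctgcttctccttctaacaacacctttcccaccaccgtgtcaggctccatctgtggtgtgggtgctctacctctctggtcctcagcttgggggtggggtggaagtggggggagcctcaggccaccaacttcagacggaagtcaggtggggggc
Il6st: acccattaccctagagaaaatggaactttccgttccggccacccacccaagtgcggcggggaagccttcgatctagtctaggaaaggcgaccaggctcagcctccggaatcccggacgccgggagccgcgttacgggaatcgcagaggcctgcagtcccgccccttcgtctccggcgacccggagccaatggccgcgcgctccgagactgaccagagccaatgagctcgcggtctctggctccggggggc
Socs1: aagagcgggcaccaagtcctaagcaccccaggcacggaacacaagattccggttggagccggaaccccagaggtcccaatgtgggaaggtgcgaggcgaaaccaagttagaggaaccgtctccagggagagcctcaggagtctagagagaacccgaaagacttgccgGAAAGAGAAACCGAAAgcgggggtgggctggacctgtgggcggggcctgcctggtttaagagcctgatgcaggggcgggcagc
The Socs1 run holds 2 overlapping matches, GAAAGAGAAA from base -83 and GAAACCGAAA from base -77 before the start. The letters occur in 2.98% of all 32851 windows over the same 250 bases. CpG dinucleotides numbered 6 in the Lif run, 26 in the Il6st run and 13 in the Socs1 run, beside a median of 10 over the windows of protein-coding genes.

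A second short sequence concerns Socs3, a direct Stat3 target. Among 16 windows of the 10 genes, 1 held TTCNNNGAA, the letters of the element that STAT factors bind, which read the same on both strands. This match lies in the Socs3 window at base -154 before the listed start, inside the annotated range of the gene, at chr11:117969502-117969530 on the minus strand. It is shown with 10 bases on either side and the element in capitals.
Socs3: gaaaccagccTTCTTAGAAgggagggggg
The letters occur in 8.30% of all 32851 windows and in 7.02% when only the 250 bases before the start are read. The region over the Socs3 start, with a peak in all 8 lists, spans this stretch. A match is a description of letters and not a bound site.

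Peak height was read as the percentile of a peak's fold over local background among all peaks of its own list, so that 50 is the median peak. Lif, a secreted cytokine of the family, was the gene without a region over a start or its outermost end. Its nearest region, 954 bp inside the gene (4258522 to 4259293 on chromosome 11), had a peak in all 8 lists. Its percentiles were 71.1, 64.7 and 70.2 with GFP, 62.4, 73.4 and 60.5 with Ezh2, and 77.0 and 69.0 with Ezh2-Y726D, and the 3 groups overlapped.

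Among the receptors, the start of Il6st, the shared signalling subunit, ranked highest. Its percentile was 90.3 ± 0.815 (SD, n = 3) with GFP, 88.5 ± 0.454 (n = 3) with Ezh2 and 92.1 ± 1.91 (n = 2) with Ezh2-Y726D. The start of Lifr, the subunit that binds Lif, stood at 82.7 ± 1.97, 87.1 ± 2.31 and 82.3 ± 4.48 in the same order. Lifr has further annotated starts, and its outermost end had no region over it. The start of Osmr, the oncostatin M receptor subunit, stood at 72.0 ± 8.20, 61.0 ± 11.8 and 72.7 ± 9.07. The region over the outermost end of Cntfr, the subunit that binds ciliary neurotrophic factor, stood at 65.7 ± 6.11, 70.0 ± 3.68 and 56.5 ± 9.13. The listed starts of Cntfr had no region over them.

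The kinase and factor starts were above the median peak of their lists. The start of Jak1 lay between 89.4 and 93.0 in all 8 lists. The start of Jak2 was at 69.9 ± 1.62 with GFP, 63.3 ± 3.59 with Ezh2 and 71.8 ± 0.462 with Ezh2-Y726D. The start of Stat3, the factor that carries the signal to the nucleus, was at 82.9, 86.2 and 84.6 with GFP, 84.5, 83.3 and 85.8 with Ezh2, and 88.9 and 90.0 with Ezh2-Y726D. Both Ezh2-Y726D values for Stat3 lay above the other 6.

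At the inhibitors, the start of Socs3 had the lowest mean of the 9 in every group. The start of Socs1 was at 63.4, 64.6 and 54.4 with GFP, 56.2, 53.4 and 49.6 with Ezh2, and 69.1 and 66.4 with Ezh2-Y726D. The start of Socs3 was at 46.6, 39.6 and 46.6 with GFP, 45.7, 44.4 and 37.7 with Ezh2, and 58.5 and 49.9 with Ezh2-Y726D. In both, the Ezh2-Y726D samples lay above all samples of the other groups. With 2 against 3 samples the smallest two-sided exact permutation p is 0.1, which the starts of Il6st, Cntfr, Stat3, Socs1 and Socs3 reached for Ezh2 against Ezh2-Y726D. Those of Jak1, Stat3 and Socs3 reached it for Ezh2-Y726D against GFP, and those of Il6st and Jak2 for Ezh2 against GFP. How often the start regions of other genes reach this value was not counted.

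**Figure D2:**
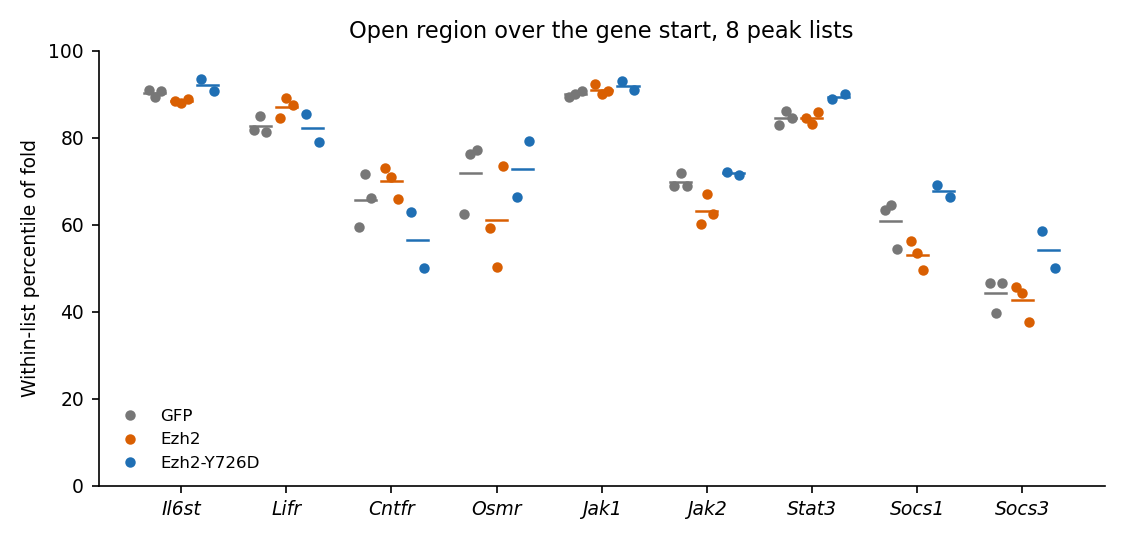
Within-list percentile of fold (vertical axis) of the region over the start of 9 genes, for Cntfr over its outermost end (horizontal axis). Each point is 1 sample and short lines are group means. Jak1 and Il6st stand near 90 and Socs3 between 37.7 and 58.5 in all groups.

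Ranks were then compared in 1 model over all 69493 regions with a peak in every list. Within each list the folds of these regions were ranked and turned into normal scores, on which 1 unit is 1 SD of those scores. The percentiles given here rank all peaks of a list instead. None of the 9 start regions was called at an adjusted p under 0.05 by limma in any of the 3 comparisons, and none passed an unadjusted p of 0.05. Their differences ran from -0.39 ± 0.231 (SE, Osmr) to 0.21 ± 0.170 (Lifr) for Ezh2 minus GFP. For Ezh2-Y726D minus GFP they ran from -0.33 ± 0.216 (Cntfr) to 0.25 ± 0.189 (Socs3), and for Ezh2 minus Ezh2-Y726D from -0.45 ± 0.208 (Socs1) to 0.45 ± 0.216 (Cntfr). The Socs3 difference for Ezh2-Y726D minus GFP became -0.04 when peaks were ranked by −log10 p in place of fold.

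Of the 47 tested regions, 11 were called in at least 1 comparison, all of them away from the starts. For Ezh2 minus GFP, 0 of 47 were higher by limma (3 at an unadjusted p under 0.05) and 1 was lower, beside 1.59% and 2.84% of all tested regions. For Ezh2-Y726D minus GFP, 2 were higher and 3 lower, beside 3.55% and 4.65%. For Ezh2 minus Ezh2-Y726D, 3 (6.38%) were higher and 6 (12.8%) lower, beside 7% and 6.96%. The shares were thus near those of all regions apart from the 6 lower ones, and the 3 comparisons share samples. The median difference of the 47 regions was -0.14, 0.05 and -0.26 for the 3 comparisons in this order, beside 0.01, -0.01 and 0.02 over all tested regions. In the last comparison 33 of the 47 regions had lower ranks with Ezh2, beside the median of 0.02 over all tested regions. The share of all tested regions with lower ranks was not counted.

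**Figure D3:**
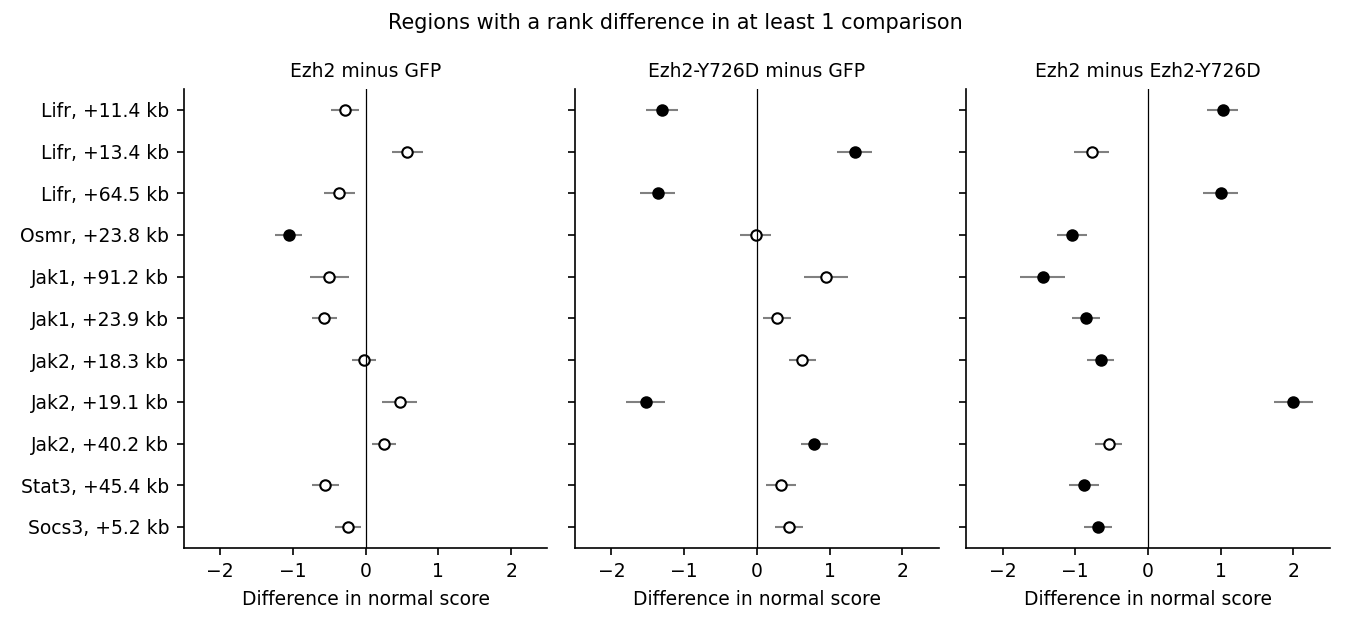
Difference in normal score (horizontal axis) with its SE for the 11 regions called in at least 1 comparison, named by gene and by distance from the nearest start in kb, downstream positive. Filled points passed an adjusted p of 0.05 in limma and open points did not. The region of Jak2 at 19.1 kb has the largest difference, 2.00 between Ezh2 and Ezh2-Y726D.

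The largest difference lay inside Jak2, which encodes the kinase bound to many cytokine receptors. The region at 29270903 to 29271594 on chromosome 19, 19.1 kb from the start, had percentiles of 79.4, 53.1 and 82.7 with GFP, 81.7, 87.0 and 85.4 with Ezh2, and 26.2 and 18.9 with Ezh2-Y726D. Both Ezh2-Y726D samples were far below the other 6. The difference was -1.53 ± 0.269 (SE) for Ezh2-Y726D minus GFP (adjusted p = 0.0109, limma) and 2.00 ± 0.269 for Ezh2 minus Ezh2-Y726D (adjusted p = 0.00202). The second call held under all 13 alternatives, and the first was lost when either Ezh2-Y726D sample was left out (adjusted p from 0.00909 to 0.0808 over 13 alternatives).

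Jak2 held 2 more called regions, both with their highest ranks in Ezh2-Y726D. The one 29 bp before it (29270120 to 29270873) had percentiles of 54.6, 58.2 and 57.1 with GFP, 56.4, 49.9 and 62.8 with Ezh2, and 78.1 and 74.1 with Ezh2-Y726D. The Ezh2-Y726D samples were the highest, and the difference for Ezh2 minus Ezh2-Y726D was -0.65 ± 0.186 (adjusted p = 0.0440, limma), a call that 12 of 13 alternatives lost (adjusted p from 0.0294 to 0.215). Another region, 40.2 kb from the start (29292000 to 29292945), was at 79.1, 74.8 and 73.9 with GFP, 82.8, 81.4 and 82.9 with Ezh2, and 93.6 and 89.8 with Ezh2-Y726D. The groups did not overlap, and Ezh2-Y726D minus GFP was 0.79 ± 0.186 (adjusted p = 0.0305, limma), lost in 7 of 13 alternatives (adjusted p from 0.0181 to 0.202). These were the fits without GFP replicate 2 or 3 or either Ezh2-Y726D sample, both replicate blocks (adjusted p of 0.0588 and 0.0514 for the numbers of titles and of peak names, limma) and the fit over regions in at least 5 lists.

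Lifr held 3 regions that differed between Ezh2-Y726D and GFP. The region at 7151988 to 7152831 on chromosome 15, inside the gene, had percentiles of 91.9, 87.6 and 91.6 with GFP, 88.8, 88.4 and 81.1 with Ezh2, and 51.9 and 68.2 with Ezh2-Y726D. It was lower with Ezh2-Y726D than with GFP by -1.31 ± 0.218 (adjusted p = 0.00865, limma) and higher with Ezh2 than with Ezh2-Y726D by 1.03 ± 0.218 (adjusted p = 0.0133). A region downstream of the gene (7205012 to 7205749) had the same order, at 83.4, 82.6 and 84.0, then 80.4, 62.2 and 81.8, then 37.0 and 51.4. Its differences were -1.36 ± 0.239 (adjusted p = 0.0105, limma) and 1.00 ± 0.239 (adjusted p = 0.0217). The calls at both regions were lost without Ezh2-Y726D replicate 1 (adjusted p of 0.0819 and 0.126 for the first region and 0.0961 and 0.175 for the second, each the highest of 13 alternatives), and the last of them also without Ezh2 replicate 1 or 3 or Ezh2-Y726D replicate 2 and with the title numbers as a replicate block (adjusted p = 0.0594, limma). The lowest adjusted p over those alternatives were 0.00591, 0.0112, 0.00637 and 0.00789 in this order.

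The third Lifr region lay 1083 bp beyond the first and moved the opposite way. At 7153915 to 7154709 the percentiles were 18.4, 25.9 and 15.8 with GFP, 25.7, 53.1 and 44.4 with Ezh2, and 66.2 and 68.9 with Ezh2-Y726D. The Ezh2-Y726D samples were the highest, by 1.35 ± 0.240 over GFP (adjusted p = 0.0113, limma). Leaving out either Ezh2-Y726D sample or ranking by −log10 p lost this call (adjusted p from 0.0110 to 0.0672 over 12 alternatives).

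Osmr carried the 1 region that differed between Ezh2 and GFP. It lies inside the gene, 23.8 kb from its start (6849590 to 6850492 on chromosome 15), and ranked among the highest peaks in the control, at 95.6, 93.4 and 96.3. With Ezh2 it was at 76.6, 85.1 and 72.2, and with Ezh2-Y726D at 94.8 and 95.8. All Ezh2 samples lay below all other samples. The difference was -1.06 ± 0.187 for Ezh2 minus GFP (adjusted p = 0.0175, limma) and -1.04 ± 0.210 for Ezh2 minus Ezh2-Y726D (adjusted p = 0.0106). The first was lost without GFP replicate 3 or Ezh2 replicate 3 (adjusted p from 0.0124 to 0.0559 over 13 alternatives) and the second without either Ezh2-Y726D sample (0.00851 to 0.0710).

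The remaining called regions were lower with Ezh2 than with Ezh2-Y726D, in Jak1, Stat3 and at Socs3. In Jak1, which encodes a kinase bound to gp130, the region at 101172748 to 101174035 on chromosome 4 was at 46.3, 16.5 and 27.0 with GFP, 25.4, 9.10 and 9.75 with Ezh2, and 54.5 and 71.7 with Ezh2-Y726D, a difference of -1.45 ± 0.305 (adjusted p = 0.0130, limma). A second Jak1 region (101240368 to 101241324) was at 37.3, 50.2 and 56.3, then 30.7, 23.2 and 32.7, then 59.9 and 57.8, a difference of -0.85 ± 0.193 (adjusted p = 0.0179). In both, Ezh2-Y726D lay above every other sample.

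In Stat3, a region 45.4 kb from the start (100893260 to 100894131 on chromosome 11) was at 92.3, 91.1 and 88.9 with GFP, 86.2, 81.2 and 75.3 with Ezh2, and 94.3 and 95.6 with Ezh2-Y726D. The groups did not overlap, and the difference was -0.88 ± 0.210 (adjusted p = 0.0215, limma). Downstream of Socs3, the region at 117963109 to 117964142 on chromosome 11 was at 56.2, 62.0 and 56.6, then 47.9, 57.2 and 47.6, then 74.8 and 70.7, a difference of -0.69 ± 0.196 (adjusted p = 0.0439, limma). These 4 calls were lost without Ezh2-Y726D replicate 2, and all but the first Jak1 region also without Ezh2-Y726D replicate 1 (highest adjusted p 0.102, 0.0993, 0.287 and 0.208 over 12 or 13 alternatives, lowest 0.00846, 0.0108, 0.0178 and 0.0278). Ranking by −log10 p also lost the first Jak1 region and the Stat3 region, whose difference shrank to -0.24 (adjusted p = 0.287, limma). The second Jak1 region was also lost without Ezh2 replicate 2 and with the peak-name numbers as a replicate block (adjusted p = 0.0568, limma), the Stat3 region without Ezh2 replicate 3, and the Socs3 region in 11 of 13 alternatives.

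A graded comparison leaves out regions that lack a peak in some list, so presence was compared as well. A region was called gained when every sample of the first group and no sample of the second had a peak in it, and lost in the reverse case. In all, 26 of the 119 regions were gained or lost in at least 1 comparison. For Ezh2 against GFP, 3 of 108 regions were gained and 2 lost, beside 3.01% and 1.85% of all regions. For Ezh2-Y726D against GFP, 2 of 108 were gained and 7 (6.48%) lost, beside 5.36% and 5.32%. For Ezh2 against Ezh2-Y726D, 17 of 113 (15%) were gained and 6 (5.31%) lost, beside 9.38% and 6.43%. Leaving out a library loosens this rule by construction. The count of 3 became 6 without GFP replicate 3, the count of 2 lost became 4 without GFP replicate 1 or Ezh2 replicate 1, and the 2 gained with Ezh2-Y726D became 4, 7 and 10 without GFP replicate 3, Ezh2-Y726D replicate 1 and Ezh2-Y726D replicate 2. The 6 lost in the last comparison became 11 and 12 without Ezh2-Y726D replicates 1 and 2.

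The calls were also read under 3 rules stricter for a peak, namely −log10 q of at least 5, lists of equal length, and a peak over 0.5 of the region or more. The absence that a call also needs is easier to meet under these rules, since fewer peaks count. Of the 17 regions gained in Ezh2 against Ezh2-Y726D, 12, 14 and 11 held under these in this order, and 4, 4 and 5 of the 6 lost. For Ezh2 against GFP, both lost regions held under each rule, and none of the 3 gained regions held under all of them. The Jak1 region at 101253890 held with the −log10 q minimum and with equal lists. The Jak1 region at 101213555 held only when a peak had to cover 0.5 of the region. For Ezh2-Y726D against GFP, both gained regions held under each rule, and 3, 7 and 2 of the 7 lost regions held in this order.

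Stat3 held 4 of the 17 regions gained in Ezh2 against Ezh2-Y726D. Of its 10 regions, 8, 7 and 8 had a peak with GFP, 8, 8 and 7 with Ezh2, and 4 and 4 with Ezh2-Y726D. The mean was thus the same for GFP and Ezh2 (7.67 ± 0.577, SD, n = 3 each), and both Ezh2-Y726D samples lay below all others. The exact permutation p was 0.1, the smallest possible, for both comparisons with Ezh2-Y726D.

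Of the 4 Stat3 regions concerned, 3 had a peak in all GFP and all Ezh2 samples and in neither Ezh2-Y726D sample. The region 33.9 kb from the start (100904496 to 100905602) was at 84.0, 68.4 and 81.4 with GFP and at 92.0, 96.8 and 97.1 with Ezh2, where it was among the highest peaks of the list. The region 17.6 kb from the start (100921259 to 100921894) was at 44.3, 15.0 and 51.9 with GFP and at 76.6, 84.4 and 69.8 with Ezh2. The region 26.4 kb from the start (100912441 to 100913142) was at 29.8, 19.8 and 37.6 with GFP and at 67.8, 46.0 and 73.4 with Ezh2. In all of them every Ezh2 sample lay above every GFP sample, although the regions were not in all lists and so not in the model above. When regions in at least 5 lists were tested, Ezh2 minus GFP was 0.94 ± 0.223 (adjusted p = 0.0566, limma), 1.16 ± 0.299 (adjusted p = 0.0710) and 0.91 ± 0.242 (adjusted p = 0.0785) for the 3 regions in this order, none under 0.05. The fourth region, 41.2 kb from the start (100897385 to 100898314), had a peak in the 3 Ezh2 samples at 36.6, 39.4 and 58.9, in GFP replicate 3 at 20.5 and in no Ezh2-Y726D sample.

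These 4 regions lie inside Stat3, and the start region, the region at 7.4 kb and the region near the end of the gene were in all 8 lists. Another region inside the gene, 24.6 kb from the start (100914345 to 100914979), went the other way. It was at 63.1, 57.8 and 53.1 with GFP, at 54.4 and 42.8 with Ezh2-Y726D, and in 1 Ezh2 list at 21.5. The T cell and the microglia and macrophage marker genes also had their fewest peaks in Ezh2-Y726D (4 to 6 of 15 genes, against 8 to 15 in the other samples), and their part in the Stat3 result was not tested. The sort for CD90.2 takes T cells along with RGCs and does not select microglia or macrophages. Microglia and macrophage marker genes with a peak at a start numbered 8 to 13 of 15 in the GFP and Ezh2 lists. With only peaks of −log10 q of at least 5, the region at 33.9 kb was still lost in Ezh2-Y726D against GFP while those at 17.6 and 26.4 kb were not, since at least 1 GFP sample then lacked a peak. All 3 calls held with the lists shortened to an equal number of peaks, and none held when a sample was counted only if its peak covered 0.5 of the region or more.

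**Figure D4:**
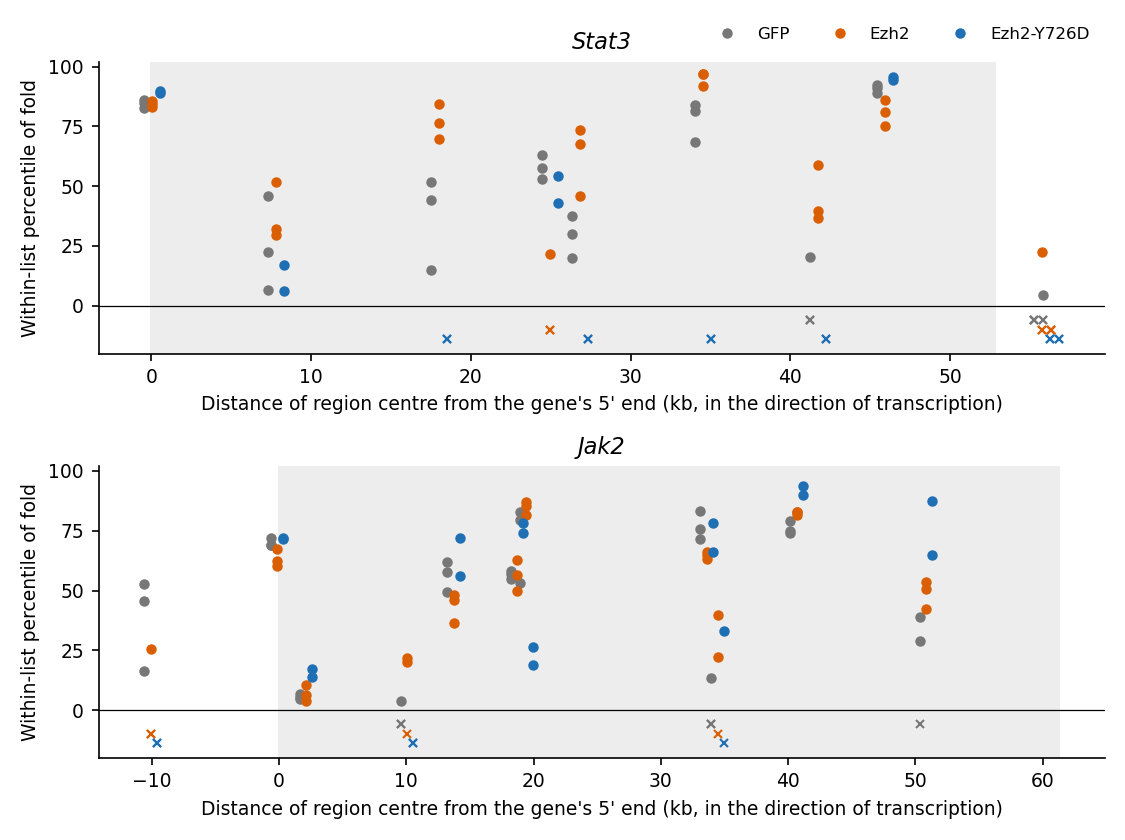
Within-list percentile of fold (vertical axis) of each region of Stat3 and Jak2 against its distance from the 5′ end of the gene in kb (horizontal axis, gene shaded, groups set slightly apart). Each point is 1 sample, and crosses under 0 mark samples without a peak. The 4 regions in the body of Stat3 that had crosses for both Ezh2-Y726D samples and a peak in every Ezh2 sample lie between 17.6 and 41.2 kb, and the Jak2 region at 19.1 kb has its 2 Ezh2-Y726D points at 26.2 and 18.9, below the other 6.

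Jak1 held 6 of the 17 gained regions. Of its 27 regions, 16, 13 and 15 had a peak with GFP, 20, 18 and 19 with Ezh2, and 15 and 13 with Ezh2-Y726D, and all Ezh2 samples lay above the rest (exact permutation p = 0.1 against either group, the smallest possible). The tallest of the differing regions, at 101187068 to 101188169, had percentiles of 73.2, 79.6 and 87.8 with GFP and 65.2, 79.6 and 79.7 with Ezh2 and no peak in either Ezh2-Y726D list. Peaks at 101213555 (17.4, 39.7 and 52.8) and 101253890 (16.2, 23.6 and 15.7) were in the 3 Ezh2 lists alone. The call of the first was lost with the −log10 q minimum or equal lists. That of the second was lost when a peak had to span 0.5 of the region. Regions at 101155494, 101182477 and 101216792 were in all Ezh2 lists, in some GFP lists and in no Ezh2-Y726D list, and 1 at 101179800 was in both Ezh2-Y726D lists, 1 GFP list and no Ezh2 list.

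In the receptors the changes went in both directions. Of the 21 Lifr regions, 13, 14 and 15 had a peak with GFP, 10, 12 and 12 with Ezh2, and 13 and 12 with Ezh2-Y726D. All Ezh2 samples lay below all GFP samples (exact permutation p = 0.1, the smallest possible). A Lifr region at 7169377 to 7169759 had a peak in the 3 GFP lists alone, at 49.2, 41.4 and 39.4. Another just upstream of the outermost end (7088523 to 7088945) was at 68.1, 57.0 and 62.8 with GFP, in no Ezh2 list, and in Ezh2-Y726D replicate 2 at 26.6. Lifr regions at 7092246 and 7113724 were gained and 1 at 7145450 lost in Ezh2 against Ezh2-Y726D (the last call under none of the 3 stricter rules), and 1 at 7198836 was in the Ezh2-Y726D lists alone (25.6 and 23.4).

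Il6st had few regions, and fewer in the control. Peaks were in 2, 2 and 2 of its 5 regions with GFP, in 4, 3 and 4 with Ezh2 and in 4 and 3 with Ezh2-Y726D, so that GFP lay below both (exact permutation p = 0.1 each, the smallest possible). The added peaks were low. The region at 112507627, downstream of the gene, was at 5.40, 1.58 and 33.8 in the Ezh2 lists alone, a call that held under none of the 3 stricter rules above, and the region at 112469463, inside the gene, at 20.8 and 24.4 in the Ezh2-Y726D lists alone. Cntfr (11 to 14 of 17 regions) and Osmr (4 to 6 of 7) had no region gained or lost in any comparison.

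Around Lif, regions differed between Ezh2 and Ezh2-Y726D in both directions. The region 10.0 kb upstream (4247069 to 4247585) was at 20.0, 41.4 and 39.4 with GFP and 57.4, 47.2 and 65.8 with Ezh2, above every GFP sample, and in no Ezh2-Y726D list, although the loss against GFP held only with equal lists among the 3 stricter rules. A region at 4268253 was at 64.8, 50.3 and 65.8 with Ezh2, in GFP replicates 1 and 3 at 35.2 and 6.96, and in no Ezh2-Y726D list. A region at 4251347 was in all Ezh2 lists, 1 GFP list and no Ezh2-Y726D list. Those at 4270881 and 4276421 were in both Ezh2-Y726D lists (27.8 and 39.9, 43.0 and 42.8) and in no Ezh2 list.

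Few regions differed at the inhibitors. Socs1, a feedback inhibitor induced by interferons, had 2 regions away from its start, each in a single list. Of the 8 Socs3 regions, 6, 4 and 6 had a peak with GFP, 7, 5 and 6 with Ezh2, and 3 and 5 with Ezh2-Y726D, which overlap. The 1 gained Socs3 region (117959883) was among the lowest peaks of the Ezh2 lists, at 3.26, 0.183 and 0.826, and its call was lost with the −log10 q minimum and with equal lists. In Jak2, 1 region 9.9 kb upstream (29241525) was in all GFP lists, 1 Ezh2 list and no Ezh2-Y726D list, a call lost with the −log10 q minimum.

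**Figure D5:**
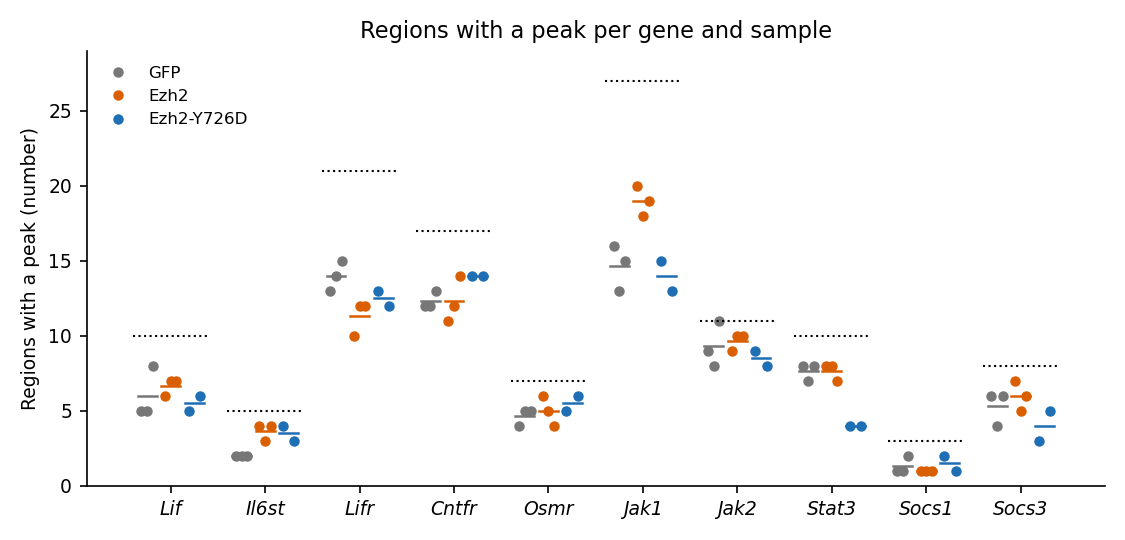
Number of regions with a peak (vertical axis) for each of the 10 genes with 10 kb around it (horizontal axis). Each point is 1 sample, short lines are group means and dotted lines give the number of regions of the gene. Stat3 is at 4 in both Ezh2-Y726D samples and at 7 or 8 elsewhere, and Jak1 is at 18 to 20 with Ezh2 and at 13 to 16 elsewhere.

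Over all 10 genes, 76, 71 and 85 regions had a peak with GFP, 82, 81 and 84 with Ezh2, and 74 and 72 with Ezh2-Y726D. The Ezh2 samples lay above both Ezh2-Y726D samples, by 9.33 regions on average, and overlapped with GFP. Regions with a peak over the whole genome numbered from 119970 to 124591 in the Ezh2-Y726D lists and from 121215 to 131089 in the Ezh2 lists. The difference of 9.33 fell to 6.33 when only 2 kb around each gene was taken.

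The pathway beyond the 10 genes was read from a list of 48 other ligands, receptors, kinases, STAT factors, inhibitors and Stat3 target genes, with 395 regions, of which 5 were also among the 119. Between 43 and 46 of the 48 had a peak at a start in the GFP and Ezh2 lists, and 40 and 42 in the Ezh2-Y726D lists. Of 171 tested regions, 1 (0.585%) was higher and 5 (2.92%) lower for Ezh2 minus GFP, beside 1.59% and 2.84% of all tested regions. For Ezh2-Y726D minus GFP 5 (2.92%) were higher and 3 (1.75%) lower, beside 3.55% and 4.65%, and for Ezh2 minus Ezh2-Y726D 9 (5.26%) and 17 (9.94%), beside 7% and 6.96%. By presence, 64 of 382 regions (16.8%) were gained and 12 (3.14%) lost in Ezh2 against Ezh2-Y726D, beside the 9.38% and 6.43% of all regions. Against GFP, 18 (4.72%) were gained and 5 (1.31%) lost with Ezh2, beside 3.01% and 1.85%, and 10 (2.97%) gained and 27 (8.01%) lost with Ezh2-Y726D, beside 5.36% and 5.32%.

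Of 41 start regions of these genes that were tested, 1 (2.44%) was higher and 4 (9.76%) lower for Ezh2 minus Ezh2-Y726D by limma, beside the 7% and 6.96% of all tested regions, so that the calls were no more frequent in all than over the genome. The start of Cish, an inhibitor of the Socs family, was at 90.4, 86.2 and 83.3 with GFP, 71.5, 71.5 and 68.5 with Ezh2, and 95.9 and 91.9 with Ezh2-Y726D, a difference of -1.21 ± 0.212 (adjusted p = 0.00586, limma). The start of Junb, an AP-1 factor, differed by -0.83 ± 0.175 (adjusted p = 0.0131) and was low in all lists, from 1.74 to 12.3. Starts of Il6ra, the interleukin-6 receptor, and Mcl1, a survival protein, were lower with Ezh2 by -0.74 ± 0.212 (adjusted p = 0.0441) and -0.60 ± 0.171 (adjusted p = 0.0436). The start of Clcf1, a ligand of Cntfr, was higher by 0.70 ± 0.171 (adjusted p = 0.0244), at 65.8, 61.2 and 67.9 with Ezh2 and 38.7 and 45.2 with Ezh2-Y726D.

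Stat4, chosen after its values were seen, held 12 of the 64 gained regions and 7 of the 27 lost with Ezh2-Y726D. It transmits interleukin-12 signals in T and natural killer cells, and its start had a peak in all GFP and Ezh2 lists and in neither Ezh2-Y726D list. T cell marker genes moved with it, as given above, and their part in these counts was not tested.

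The start regions most like those of Stat3 and Socs3 over the 8 lists were found among 10795 protein-coding genes. For Stat3 they were Abhd17a (Pearson r = 0.989), Rsl1d1 (0.984) and Tnfsf13b (0.979), and 26 genes exceeded 0.9. For Socs3 they were Eif3j1 (0.958), Gm10130 (0.957) and Cdc26 (0.951), and 35 genes exceeded 0.9. With 8 points that share their libraries, these values are a description.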

How the data were processed

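RGC ATAC-seq libraries of 8 samples were analysed from 1 peak list per sample. Per the labels' processing notes the authors used cutadapt, Bowtie2, SAMtools, Picard, MACS2 and deepTools on GRCm38; versions are not given in the sources used here. Peaks were called in each sample separately. The deposited fold of a peak is a ratio of its pileup to local background, its deposited −log10 p-value and its −log10 q-value are the peak caller's, and the deposited score, a rescaled value, was not used. The lowest −log10 q was 1.31 to 1.38. As lists hold no read counts, values were compared only as ranks within a list.

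Groups came from the sample titles. Peaks sharing at least 1 bp were merged, and a list with several peaks in a region gave its highest fold. Normal scores of ranks over regions in all 8 lists were compared with limma 3.58.1 (R 4.3.3), all samples in 1 fit, with Benjamini-Hochberg adjustment over 69493 regions, called under 0.05. The script was tested on simulated data. Numbers per gene and percentiles were compared with two-sided exact permutation tests (scipy 1.17.1). Gene ends and starts came from RefSeq; exons and introns were not analysed here, and sequence was read only in the promoter windows. Named were all 10 genes, their start regions, every region called by rank or presence, the 3 start regions most like those of Stat3 and of Socs3, and genes of the wider list whose start was called. The members, lists and tests were chosen with earlier results of these data known. Alternatives were ranking by −log10 p, regions in at least 5 lists, a −log10 q of at least 5, replicate blocks, lists of equal length, a peak covering at least 0.5 of the region, 2 kb windows and leaving out each sample.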

Additional observations from a re-analysis of the deposited data

How the results depend on the processing

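With each sample left out in turn, the regions called for Ezh2 minus GFP ranged from 0 to 1 higher and 0 to 2 lower, those for Ezh2-Y726D minus GFP from 0 to 3 higher and 0 to 3 lower, and those for Ezh2 minus Ezh2-Y726D from 1 to 3 higher and 0 to 5 lower. Both counts for Ezh2-Y726D minus GFP were 0 without Ezh2-Y726D replicate 1 and the higher count also without Ezh2-Y726D replicate 2. The lower count for Ezh2 minus Ezh2-Y726D was 2 without Ezh2-Y726D replicate 1 and 0 without Ezh2-Y726D replicate 2. Gained and lost regions ranged from 3 to 6 and 2 to 4 for Ezh2 against GFP, 2 to 10 and 8 to 10 for Ezh2-Y726D against GFP, and 18 to 20 and 6 to 12 for Ezh2 against Ezh2-Y726D. With regions in at least 5 lists, 1 region in place of 2 was higher for Ezh2-Y726D minus GFP. With a peak covering at least 0.5 of a region, 4 in place of 2 were gained in that comparison, and with −log10 q of at least 5, 4 in place of 7 were lost. The difference of 9.33 regions with a peak between Ezh2 and Ezh2-Y726D ranged from 8.33 to 10.3 without single samples and became 6.33 with 2 kb windows. Ezh2 minus GFP ranged from 1.83 to 8.83 and Ezh2-Y726D minus GFP from -7.5 to -0.5, the ends of both being without GFP replicates 2 and 3.

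Deviations of same-numbered samples correlated weakly, from -0.0151 to 0.0478 by the title numbers and from 0.0018 to 0.0478 by the peak-name numbers. Among the Ezh2 samples, each GFP sample correlated most with the one of its own number (0.0054, 0.0326 and 0.0478). Whether the samples were paired stays unknown. With the title numbers as a replicate block, 1 region in place of 2 was higher for Ezh2-Y726D minus GFP. Peak names number the Ezh2-Y726D samples 2 and 3, and that replicate block left 3 in place of 6 lower regions for Ezh2 minus Ezh2-Y726D. Under it the 2 higher regions for Ezh2-Y726D minus GFP included the first Jak1 region (101172748) in place of the Jak2 region at 40.2 kb. No difference that limma called changed sign under any alternative run. Differences that were not called did so at the starts of Il6st, Lifr, Osmr, Jak1, Jak2, Stat3 and Socs3 and at a called region each of Jak2 and Osmr. Without read numbers, a missing peak cannot be told apart from one below the threshold at that depth.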
